A study of Mus musculus with 2 samples.

Results

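Mir191 and Mir425 are neighbouring microRNA (miRNA) genes on mouse chromosome 9, here described in the hearts of mouse embryos. miRNAs are short RNAs cut from a hairpin precursor that lower the output of mRNAs matching their seed, the bases near the 5′ end. Mir425 was taken from its own row of the deposited counts, on the strand of the gene. Mir191 has no row of its own. It was read from the row of Gm24083, a gene annotated on the opposite DNA strand over the same hairpin, by the counts opposite that gene. These counts are called the Mir191 strand. The 2 rows are 2 of 1973 counted miRNA genes, and they were chosen by their counts in these libraries, on the gene's strand for Mir425 and opposite the gene for Gm24083. The levels are therefore a description without a test.

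The hearts came from healthy embryos of strain B6NCrl at embryonic day 15.5, males and females pooled, and total RNA was the starting material. Hearts of 78 embryos went into replicate 1 and hearts of 62 into replicate 2, and these 2 biological replicates make up a single group (1 group). With no treatment, mutant or second age, the data answer how much of each miRNA the heart libraries held and how far the pools differed, and p-values measure the spread against counting noise only. In bulk tissue, fewer cells of a type and less miRNA per cell cannot be told apart.

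As background, Mir191 and Mir425 are usually described as made from one transcript, that of the host gene Dalrd3. Mature miR-191 is found in most tissues and is often used as a reference when other miRNAs are measured. miR-425 is known in heart research because it was reported to lower the mRNA of human NPPA, which encodes atrial natriuretic peptide. Whether it does so in these mouse hearts was not tested.

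Both hairpins lie on the plus strand of mm10. Mir191 (ENSMUSG00000105497.1) is at chr9:108568319-108568392 and Mir425 (ENSMUSG00000065579.1) at chr9:108568777-108568861, with 384 bases between them. The mature sequences of RefSeq (GRCm38.p6) are shown because the seeds, bases 2 to 8 in capitals, tell the miRNAs apart.
mmu-miR-191-5p: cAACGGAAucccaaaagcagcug
mmu-miR-191-3p: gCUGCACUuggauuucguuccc
mmu-miR-425-5p: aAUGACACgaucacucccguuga
mmu-miR-425-3p: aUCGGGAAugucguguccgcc
mmu-miR-489-3p: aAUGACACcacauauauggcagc

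The 4 arms of Mir191 and Mir425 have 4 different seeds. Among the 1738 mature miRNAs of that table, no other one has the seed of miR-191-5p, miR-191-3p or miR-425-3p. The seed of miR-425-5p is shared with 1 other, miR-489-3p. Mir489 had 0 counts in replicate 1, where 3 counts (0.872 per 1000000) is the limit that a count of 0 allows, and 4 counts in replicate 2. Nearly all counts of hairpins with this seed were therefore those of Mir425.

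The hairpins themselves are shown with both mature arms in capitals, since the counts cover a whole hairpin and do not separate its arms.
Mir191: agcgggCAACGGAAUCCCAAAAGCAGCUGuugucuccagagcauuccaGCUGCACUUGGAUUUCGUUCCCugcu
Mir425: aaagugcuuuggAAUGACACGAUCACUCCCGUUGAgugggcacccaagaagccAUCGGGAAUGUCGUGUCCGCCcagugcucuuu

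The longest stretch that Mir191 shares with any other annotated hairpin, apart from Gm24083 over the same bases, is 12 bases, and for Mir425 it is 13. The hairpins of Mir191 and Mir425 share no more than 5 bases in a row. Reads that match several places are in no gene count, and how many reads of these hairpins were lost in this way was not tested. Of the 3206 hairpin entries searched in RefSeq and GENCODE M21, none besides Gm24083 and the genes' own entries shared 20 bases with either.

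Gm24083 (ENSMUSG00000092915.1) is annotated as a miRNA gene on the minus strand, at chr9:108568295-108568414, and is 120 bases long. The plus strand of that stretch, from GENCODE M21, is shown with the 74 bases of the Mir191 hairpin in capitals, because this is the window in which the Mir191 strand was counted.
Gm24083, opposite strand: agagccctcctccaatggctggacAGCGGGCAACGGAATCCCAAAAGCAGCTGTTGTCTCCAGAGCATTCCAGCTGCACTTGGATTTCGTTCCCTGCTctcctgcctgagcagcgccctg

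The hairpin takes up bases 25 to 98 of this window, with 24 bases before it and 22 after it. Whether every read in the window is one of Mir191 was not tested. Per the labels the libraries hold inserts under 30 bases, a size that does not by itself tell hairpin reads from reads of the flanks.

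The annotations place the host gene differently. In RefSeq, Dalrd3 spans positions 108567484 to 108572773 of chromosome 9 and covers both hairpins, the first of them 835 bases into the gene. In GENCODE M21, Dalrd3 starts at position 108569886, which is 1025 bases beyond the end of Mir425. There, both hairpins lie in the single exon of one transcript of the long noncoding RNA gene 4833445I07Rik, at positions 108567533 to 108569174 of the same strand. In the other, spliced transcript of that gene, with 2 exons, Mir191 is intronic and Mir425 begins 3 bases beyond the last exon. The host gene Dalrd3 thus holds for RefSeq and not for GENCODE M21, and these small RNA counts do not show which transcript the hairpins came from.

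**Figure D1:**
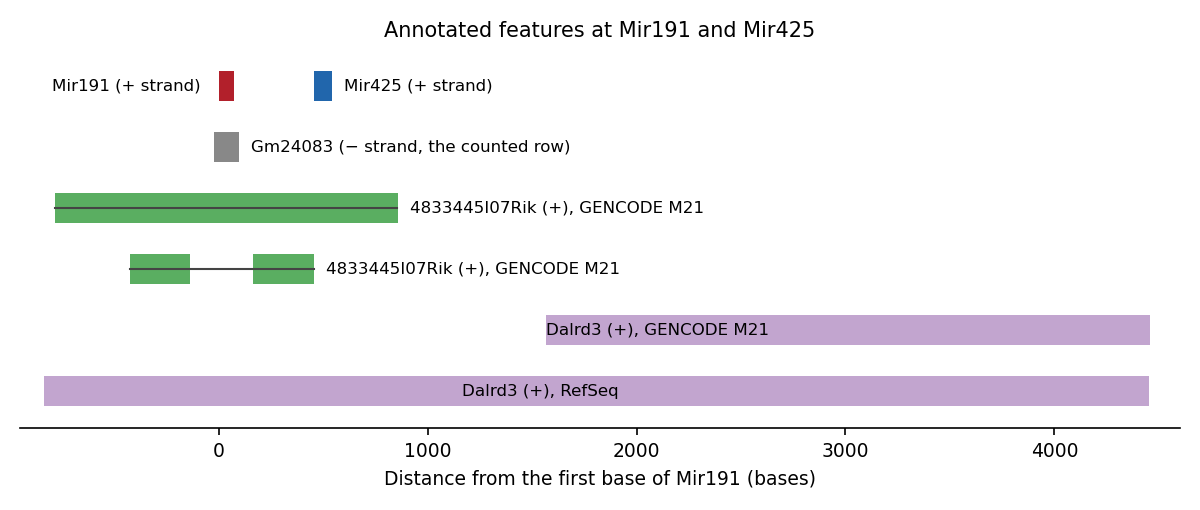
Map of the annotated features, with the distance from the first base of Mir191 on the x axis in bases and 1 row per feature or transcript; boxes are exons or hairpins and thin lines introns. Dalrd3 of RefSeq covers both hairpins, while Dalrd3 of GENCODE M21 starts 1025 bases beyond Mir425.

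The libraries held 3439539 and 5833156 counts on the strand of the miRNA genes in replicates 1 and 2. Levels are counts per 1000000 of these (CPM), so that 1 count is worth 0.291 and 0.171 CPM. Multiply matching reads, in no gene count, were 33.0% and 30.1% of reads. At least 10 counts in both libraries, here called detected, were reached by 327 genes. Heart muscle markers (Mir208a, Mir208b and Mir499) summed to 62341 and 45466 CPM in replicates 1 and 2. The smooth muscle markers Mir143 and Mir145a had a higher sum, 83564 and 89291 CPM. Nearly all of it was Mir143, at 82454 and 88393 CPM, while Mir145a had 1110 and 899 CPM. The endothelial marker Mir126a, at 79217 and 67775 CPM, also exceeded the heart muscle sum in both. These sums hold only the named genes and do not rank the cell types. Muscle miRNA genes outside the list, such as Mir133a-1 with 5 and 7 counts, do not enter the heart muscle sum. Whether heart muscle reads were lost as multiply matching was not tested. The 3 counted neural markers summed to 0.291 and 1.54 CPM, with Mir9-2 and Mir124a-1 at 0 in both, but each shares 20 bases with other hairpins and may be undercounted. Mir137, a neural miRNA without such a copy that was added after its values were seen, had 152 and 1366 counts. The epithelial markers Mir200c and Mir205 summed to 505 and 2524 CPM. Of the erythroid markers, Mir451a had 1975 and 564 CPM and Mir144 had 401 and 422 CPM. The leukocyte marker Mir223 had 336 and 471 CPM, the liver marker Mir122 had 87.2 and 309 CPM and the skeletal muscle marker Mir206 had 73.3 and 102 CPM. The part of these differences in the results below was not tested.

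Mir425 was a gene of the upper range in the embryonic heart. It had 4385 counts in replicate 1, or 1275 CPM (exact binomial 95% interval 1237 to 1313), and 8265 counts in replicate 2, or 1417 CPM (1387 to 1448). Replicate 2 was the higher one on this scale. The mean was 1346 ± 100.4 CPM (SD, n = 2), or 0.135% of the counts. It ranked 71 of 1973 counted genes by mean level, with 256 of the 327 detected genes below it, and stood 9.19 times above their median of 146 CPM. This rank leaves out miRNAs without a row of their own. Genes whose reads match several places may also stand too low in the order.

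The Mir191 strand held more counts than Mir425 in both libraries. It had 7285 counts in replicate 1, or 2118 CPM (2070 to 2167), and 14659 in replicate 2, or 2513 CPM (2473 to 2554). The lower of these values lies above the higher one of Mir425, so the ranges do not overlap. The mean was 2316 ± 279.3 CPM (SD, n = 2), or 15.8 times the median of the detected genes. It equals 0.232% of the gene-strand counts, a total that does not itself include the Mir191 strand. Were it a counted gene, it would stand at place 51, with 277 detected genes below it and the same limits as for Mir425. Both together came to 3661 ± 379.8 CPM, equal to 0.366% of that same total. Because no molecular identifiers are in the files, the intervals cover counting error only.

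The reads of the locus came from the strand of the hairpins. Mir425 had 0 counts on its opposite strand in both libraries, which allows up to 0.0684% and 0.0363% of its counts in replicates 1 and 2. Gm24083 likewise had 0 counts on its own strand, against 7285 and 14659 opposite it, which allows up to 0.0412% and 0.0205%. No read of a Gm24083 product was thus counted at this depth. A lack of opposite counts was usual, since 296 of the 327 detected genes had 0 in both libraries.

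Mir191 was one of several miRNAs that had no row of their own. In 9 rows at least 1000 counts lay opposite the gene in both libraries, and for each of the 9 a miRNA without its own row is annotated on that strand. By mean level, Gm24083 was the fourth of these rows (rank 4). It lay below Gm24321, opposite which Mir409 lies, at 2265 and 3319 CPM, and above Mir142b, opposite which Mir142 lies, at 1585 and 2665 CPM. It held 3.48% of all opposite-strand counts in replicate 1 and 4.90% in replicate 2. The first of the rows, Gm25301 opposite Mir378a, had 47438 and 34012 CPM.

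Most genes next to Mir425 in the order of levels had ranges over the 2 libraries that overlapped its own. They were picked for means close to that of Mir425, so overlap was likely in advance. Within replicate 1, Mir429 and Mir16-1 still lay well apart from the 1275 CPM of Mir425. The next above were Mir429 of the epithelial Mir200 family (634 and 2239 CPM), Mir16-1 (1733 and 1380 CPM) and Mir92-1 of the Mir17-92 cluster (1508 and 1748 CPM). Of these only Mir92-1 did not overlap the range of Mir425. Next below were Mir28a (1175 and 1447 CPM), Mir101b (1301 and 1317 CPM) and Mir27b (1237 and 1381 CPM), all 3 within overlapping ranges. Mir16-1, Mir92-1, Mir28a, Mir101b and Mir27b each share 20 bases with another hairpin, and may be undercounted for that reason, whereas Mir425 and Mir429 share none.

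Around the Mir191 strand, all 6 neighbours in the order overlapped its range, which was likely in advance for genes picked by close means. Above it stood Mir431 of the imprinted Dlk1-Dio3 region (1930 and 2744 CPM), Mir139 (2167 and 2549 CPM) and Mir483, which lies in Igf2 (2182 and 2557 CPM). Below it stood Mir15a (2130 and 2403 CPM), Mirlet7f-2 (2126 and 2234 CPM) and the heart muscle miRNA gene Mir499 (2492 and 1829 CPM). The Mir191 strand thus held about as many counts as Mir499, although Mir499 was higher in replicate 1 and the Mir191 strand in replicate 2. The heart muscle markers Mir208a and Mir208b stood far higher, at means of 5886 and 45857 CPM. Of the 6 neighbours, only Mirlet7f-2 shares 20 bases with other hairpins, and it may be undercounted for that reason.

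**Figure D2:**
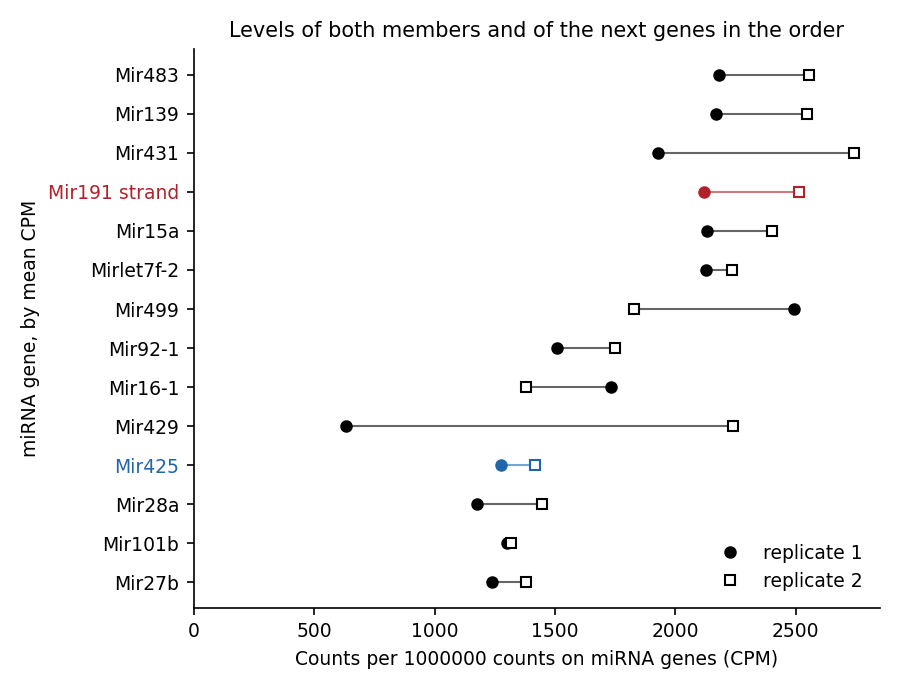
Levels of Mir425, the Mir191 strand and the 3 counted genes next above and below each; the x axis gives CPM, the y axis the genes in the order of their mean, with filled circles for replicate 1 and open squares for replicate 2. The Mir191 strand (2118 and 2513 CPM) lies wholly above Mir425 (1275 and 1417 CPM), and Mir429 has the widest range of the genes shown.

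Likeness of pattern was measured as the distance of log2(CPM + 0.5) over the 2 libraries, for which a small value means like levels in both. The gene most like Mir425 was Mir27b, at a distance of 0.057, followed by Mir101b (0.11), Mir28a (0.12), Mir1983 (0.25) and Mir872 (0.36). Most like the Mir191 strand were Mir139 (0.039), Mir483 (0.049), Mir15a (0.065), Mir296 (0.17) and Mirlet7f-2 (0.17). With 2 libraries this likeness is one of level and says little more. Mir425 was left out of the candidates in both searches, so its absence from the second list has no meaning.

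The Mir191 strand exceeded Mir425 by a like factor in both pools. In replicate 1 it had 1.66 times the counts of Mir425, with an exact binomial 95% interval of 1.60 to 1.73. In replicate 2 it had 1.77 times the counts (1.73 to 1.82). The Mir191 strand thus gave 62.4% of the counts of the locus in replicate 1 and 63.9% in replicate 2. On the log2 scale the ratio was 0.78 ± 0.067 (SD, n = 2). Amounts in the tissue may stand in another ratio than the counts. Per base of the counted windows, which are 120 and 85 bases long, it would be 1.22. That value is no estimate of the ratio in the tissue, since whether reads spread evenly over the windows was not tested.

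The ratios of the libraries differed by 0.094 on the log2 scale, or 1.07-fold, with the higher share of Mir191 in replicate 2. This exceeded counting noise in Fisher's exact test (two-sided p = 0.00553, and 0.0163 when adjusted by Benjamini-Hochberg over 53 pairs). The test sets 2 libraries against each other and compares no conditions. Such a difference was common, since 34.0% of the 53 pairs passed, and 48.6% of the 37 with at least 100 counts for each gene in each library. Both shares include the pair of Mir191 and Mir425 itself.

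Other neighbouring miRNA genes give this difference a scale. Detected genes next to each other on one strand within 10 kb and inside one host gene of GENCODE M21 formed 36 pairs with at least 100 counts for each gene. The size of the difference between libraries had a median of 0.19 in these pairs and ranged from 0.0087 to 0.69, and 9 of the 36 had a smaller one than Mir191 and Mir425. The size of the log2 ratio itself had a median of 2.95, and in 7 of the 36 it was smaller. Of these pairs, 21 hold no gene that shares 20 bases with another hairpin, a choice made after the data were seen, and 4 of the 21 had a smaller difference and 4 a smaller log2 ratio. In Mcm7, Mir93 exceeded Mir106b by 0.87 in replicate 1 and 0.56 in replicate 2 (log2), while Mir25 lay far below Mir93, at -4.48 and -4.35. In Smc4 the log2 ratio of Mir15b to Mir16-2 was 1.26 and 1.96, and in Dleu2 that of Mir16-1 to Mir15a was -0.30 and -0.80, where Mir16-1 and Mir16-2 share 20 bases and may be undercounted. Pairs of one host share genes, and no test of these sizes was made.

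**Figure D3:**
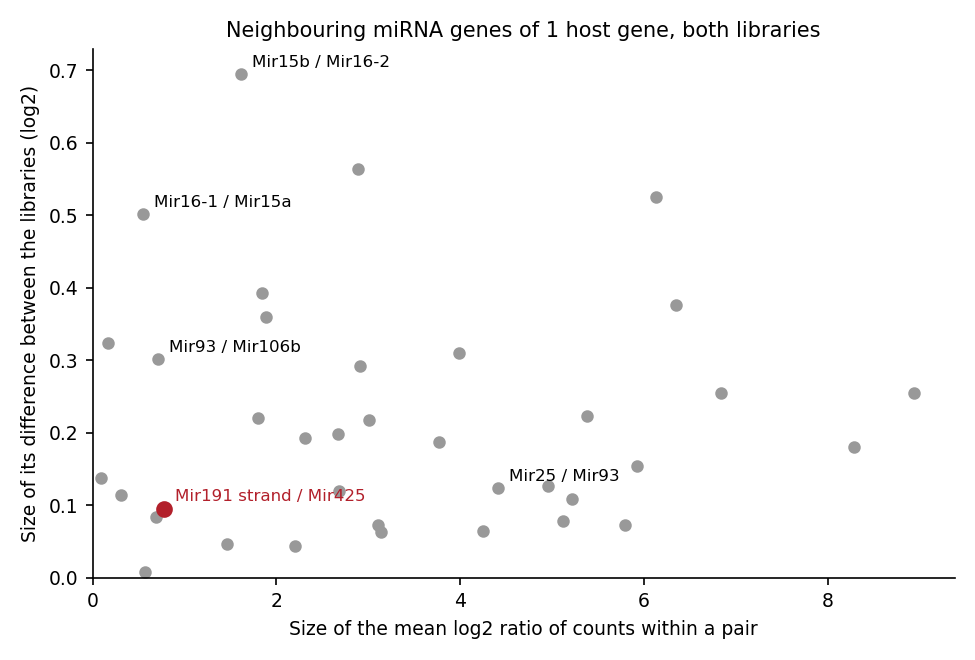
Pairs of neighbouring miRNA genes of 1 host gene, with the size of the mean log2 ratio of counts on the x axis and the size of its difference between the libraries on the y axis; each grey point is 1 of 36 pairs. The Mir191 strand and Mir425 (red, 0.78 and 0.094) lie near the lower left corner, and Mir15b with Mir16-2 is the highest point at 0.69.

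Between the pools Mir425 differed by no more than counting noise after TMM scaling (trimmed mean of M values), which sets the bulk of genes equal. Its scaled levels were 1354 and 1334 per 1000000 in replicates 1 and 2, a log2 ratio of replicate 1 to replicate 2 of 0.021 (95% interval -0.033 to 0.074), with an adjusted p of 0.585 in the exact conditional binomial test. Among all tested genes 46.5% passed this test (192 of 413), 90 of them higher in replicate 1 and 102 higher in replicate 2. By total counts the split was 48 and 155, since that scaling moves the median of the detected genes from -0.0045 to -0.18. By total counts Mir425 reversed direction and passed, at -0.15 with an adjusted p of 4.82e-08 in the same exact test, against that median of -0.18. With at least 1000 counts in sum, as Mir425 has, 78.0% of 182 genes passed.

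The Mir191 strand was slightly higher in replicate 2. Its scaled levels were 2249 and 2367 per 1000000, a log2 ratio of replicate 1 to replicate 2 of -0.074 (-0.11 to -0.033), with an adjusted p of 0.00108 in the same exact test over the 21 tested opposite-strand rows. Of these rows 38.1% passed, 14.3% as higher in replicate 1 and 23.8% as higher in replicate 2. With DESeq2 size factors the call was lost, at -0.034 and an adjusted p of 0.238. Relative to the median of the detected genes, the values were 0.025 for Mir425 and -0.069 for the Mir191 strand under each of the 3 scalings. A scaling shifts all log2 ratios by the same amount, so this sameness was fixed in advance.

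How these differences rank among the detected genes depended on the scaling. After TMM scaling the size of the log2 ratio had a median of 0.24 and an upper quartile of 0.50 over the 327 detected genes. Of these, 15 had a smaller value than Mir425, and 55 had a smaller one than the Mir191 strand. By total counts these numbers were 89 and 142, with a median size of 0.28, and with DESeq2 size factors 44 and 27. By the SD of the CPM, the spread was 7.46% of the mean for Mir425 and 12.1% for the Mir191 strand.

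Since miR-191 is often used as a reference, it was set beside 11 genes of miRNAs that are also used or proposed as references. Of the 11, 10 were detected. Of the 11 tested genes 7 passed as higher in replicate 1 and 0 as higher in replicate 2, with a median log2 ratio of 0.20 against -0.040 over all 413 tested genes; 21.8% and 24.7% of all tested genes passed in these directions. By total counts 3 passed in each direction, and with DESeq2 size factors 8 and 0. After TMM scaling the sizes of their log2 ratios had a median of 0.20, and 1 of the 11 had a smaller one than Mir425 and 2 a smaller one than the Mir191 strand. By total counts the list's median size was 0.076, and 7 and 9 of the 11 were below Mir425 and the Mir191 strand. With DESeq2 size factors 1 of the 11 was below each.

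The reference genes covered a wide range of levels, and after TMM scaling most differed between the libraries. Mir16-1 and Mir16-2 had the largest log2 ratios of the list, 0.50 and 0.60. Both passed, with adjusted p-values of 1.06e-88 and 8.83e-20 in the exact conditional binomial test. Mir423 had 2747 and 3016 CPM, with a log2 ratio of 0.038 after scaling that did not pass (adjusted p = 0.0814, exact conditional binomial test). Mir93, in the proliferation-associated Mir106b-25 cluster, had 5663 and 5935 CPM and was the highest of the list. It passed at a log2 ratio of 0.11 (adjusted p = 2.34e-15, exact test). Mir361 had 1987 and 1952 CPM and Mir484 had 1749 and 1659 CPM, between Mir425 and the Mir191 strand in level. These passed too, at log2 ratios of 0.20 and 0.25 (adjusted p = 2.05e-18 and 8.61e-25, exact test). Mir25 had 254 and 290 CPM, with a log2 ratio of -0.018 that was smaller in size than those of both Mir425 and the Mir191 strand. Mir103-1 had 9 and 13 counts and Mir103-2 had 123 and 204, and both share 20 bases with each other and with Mir107, so both may be undercounted. Of the 11 genes, 4 share 20 bases with another hairpin (these 2, Mir16-1 and Mir16-2), while Mir425 and Mir191 share such a stretch with no other counted locus.

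**Figure D4:**
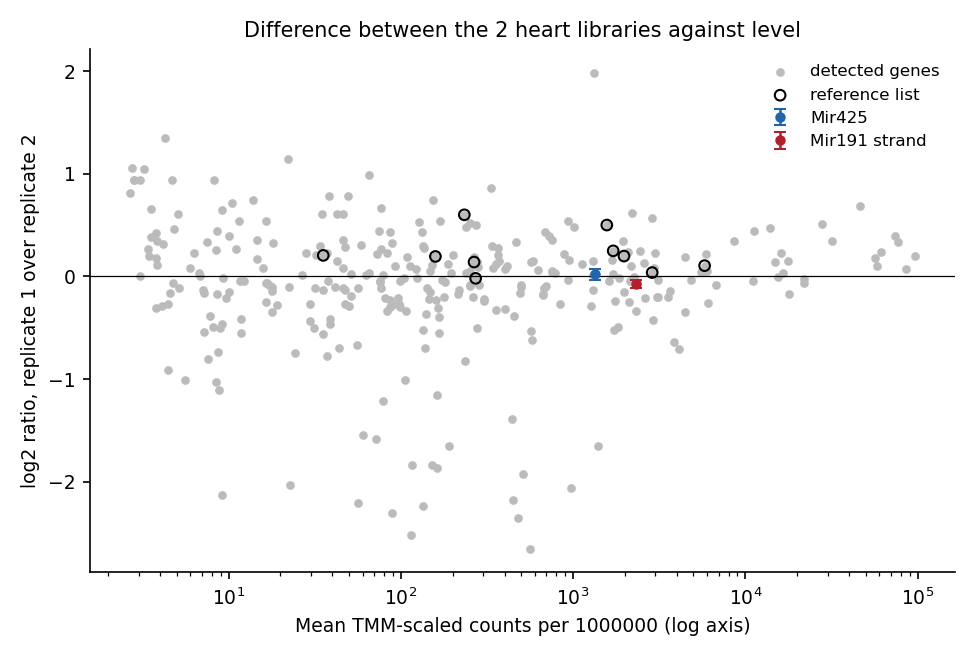
Log2 ratio of replicate 1 to replicate 2 after TMM scaling on the y axis against the mean scaled level per 1000000 on the x axis, which is logarithmic; grey points are the 327 detected genes, open circles the 10 detected reference genes, and the bars on Mir425 and the Mir191 strand exact 95% intervals. Mir425 (0.021) and the Mir191 strand (-0.074) lie close to 0, inside the cloud of genes.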

How the data were processed

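Small RNA was sequenced from 2 pools of embryonic mouse hearts. The authors placed reads on mm10 and counted genes of GENCODE M4, per the deposited text that lists the files. For the aligner and the counter, a name is not given in the sources used here. Their deposited counts are raw, whole reads per miRNA gene on either strand, on the gene's strand and on the opposite strand. In all 1973 rows the last 2 add up to the first. Lines that name no gene stayed out of totals. They hold multiply matching reads, unmapped reads (13.1% and 15.1% in replicates 1 and 2) and reads on the strand of no gene (5.11% and 5.07%), which include the Mir191 strand.

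Symbols and positions come from GENCODE M21 (1894 of 1973 IDs matched) and sequences from RefSeq, with both Mir191 and Mir425 matched. The members, lists and tests were chosen with earlier results of these data known. Genes named are Mir425 and the Mir191 strand, the 3 next above and below each in level, the 5 nearest, opposite-strand rows with at least 1000 counts, a list of 11 reference genes, cell type markers (Mir9-1 and Mir124-1 matched no row) and host gene pairs. Gm25301, Mir133a-1, Mir137 and the pairs in Mcm7, Smc4 and Dleu2 were picked as examples after their values were seen.

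An exact conditional binomial test, two-sided, compared the libraries at TMM-scaled sizes (factors 0.942 and 1.06, edgeR 4.0.16, R 4.3.3) for rows with at least 10 counts summed, and Benjamini-Hochberg adjusted p-values under 0.05 passed. Alternatives were total counts, DESeq2 1.42.0 size factors, other count minimums, other denominators, either-strand counts and leaving out each replicate. Intervals are exact Clopper-Pearson 95% intervals. Python 3.11.15 and scipy 1.17.1 were used. On simulated counts for the 413 gene-strand rows, the test found 47.5% of genes changed 1.2-fold and 78.5% of those changed 2-fold. The simulated counts held counting noise alone, with no spread between pools and no error in the scaling, unlike real libraries.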

Additional observations from a re-analysis of the deposited data

How the results depend on the processing

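Counts on either strand gave the same values for both levels and their ratio, as they had to, since the other strand held no counts. With counts on either strand as the denominator, neither level moved by more than the SD. Per 1000000 reads of the library, the levels were 663 for Mir425 and 1141 for the Mir191 strand, since unmapped and multiply matching reads then enter the denominator. Leaving out each replicate gave 1275 to 1417 CPM for Mir425, 2118 to 2513 CPM for the Mir191 strand and 0.73 to 0.83 for the log2 ratio. The log2 ratio was 0.28 per base of the counted window, which was an alternative added after the data were seen. It is no estimate of the ratio in the tissue. The direction for Mir425 between the libraries reversed by total counts, from 0.021 to -0.15 (adjusted p = 4.82e-08, exact conditional binomial test, with a range of 4.82e-08 to 0.727 over its alternatives). By total counts the size of the log2 ratio was smaller than that of Mir425 in 89 of 327 detected genes (15 after TMM scaling) and smaller than that of the Mir191 strand in 142 (55 after TMM scaling). The Mir191 strand lost its call with DESeq2 size factors, at -0.034 (adjusted p = 0.238, range 8.42e-33 to 0.238). The count of genes that passed ranged from 180 to 203 around 192, but the number tested changed with the count minimum. The share that passed was 46.5% in the main setting (192 of 413). It was 26.2% with no filter on low counts (180 of 687) and 65.7% with at least 100 counts summed (180 of 274). No paired analysis was possible because there is 1 group.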
